A study of Mus musculus with 34 samples.

Results

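The interferon-stimulated genes and GTPases are a list of 45 mouse genes that cells switch on after interferon. They were chosen by name, from their known roles, but with earlier results of these data known. Of the 45, 42 had an array probe set of their own among the 22180 genes measured. Oas1a shared its probe set with Oas1g and Gbp2 shared its probe set with Gbp2b, so neither could be read alone, and no probe set was listed for Ifi44. Expression was measured on 34 arrays of dendritic cells (DCs), sorted fresh from the spleens of C57BL/6 mice.

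Interferons are secreted proteins that warn cells of infection. Type I interferons act through a complex that holds STAT2 and IRF9 and binds a DNA element in the promoters of many antiviral genes. Interferon gamma is the main inducer of the GBP and IRG GTPases, families that act in the defence against microbes held in vacuoles. The products of these genes sense viral RNA and DNA, degrade or block viral RNA, or modify proteins, and part of the set is expressed at a basal level without infection. Splenic DCs fall into CD8+ cells, known for cross-presenting antigen to CD8 T cells, and CD8- cells, known for presenting antigen to CD4 T cells.

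Sorted CD8+ DCs were profiled on 4 arrays labelled Mst1/2-KO and on 4 wild-type (WT) arrays. Sorted CD8- DCs were likewise profiled on 4 Mst1/2-KO and 4 WT arrays. The label Mst1/2-KO stands for a knockout of the Hippo pathway kinases Mst1 and Mst2. Total DCs were profiled on 3 Mst1/2-KO and 4 WT arrays. In experiment 1, 3 arrays came from mice labelled Rag1-KO p38-KO and 4 from Rag1-KO mice, p38 being a stress-activated kinase. Loss of Rag1 stops the formation of mature lymphocytes of the T and B lineages. All 7 were stimulated with anti-CD40, an antibody that engages a co-stimulatory receptor of DCs. In experiment 2, 2 Rag1-KO arrays with anti-CD40 were set against 1 non-stimulated Rag1-KO array and 1 WT array with anti-CD40. The labels give neither age, nor a Cre driver, nor whether the arrays of 1 group stand for different mice, so p-values measure the spread between arrays, which may be technical.

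Deposited values are log2 signals, and they carry an additive constant for each probe set and experiment label. Levels are therefore compared within an experiment label only, and no gene's level is set against another gene's. The median of all probe sets per array lay between 4.11 and 4.20, and the number of arrays limits the precision. Stk4, which encodes Mst1, was lower in Mst1/2-KO than in WT arrays, with a log2 change of -0.86 ± 0.10 (SE) in CD8+ DCs, -0.77 ± 0.10 in CD8- DCs and -1.09 ± 0.09 in total DCs. Stk3, which encodes Mst2, had no probe set in the annotation used, so its loss could not be checked. Mapk14, which encodes p38 alpha, changed by 0.23 ± 0.14 in experiment 1 (adjusted p = 0.657 in limma's fit), and whether its probes lie inside the deleted part is not known here, so it does not check the label.

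Type I interferon works through a promoter element whose core can be written as GAAANNGAAA, read also as TTTCNNTTTC on the other strand. The 250 bases before the gene starts were searched on both strands in the RefSeq promoters of GRCm38.p6, with overlapping matches counted. A promoter was listed for 34 of the 45 genes, some of them with several, and 18 of these genes held the letters at least once. Of their 42 promoters 45.2% held the letters, against 2.98% of all 32851 promoters listed. The 7 stretches printed belong to genes that return in the results. Each runs 5′ to 3′ from 15 bases before its first match to the gene start, with the matches in capitals.
Isg15: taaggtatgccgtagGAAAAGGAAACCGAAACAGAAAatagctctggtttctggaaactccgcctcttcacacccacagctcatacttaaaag
Ddx60: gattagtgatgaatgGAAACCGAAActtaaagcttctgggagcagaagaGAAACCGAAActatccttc
Ifit1: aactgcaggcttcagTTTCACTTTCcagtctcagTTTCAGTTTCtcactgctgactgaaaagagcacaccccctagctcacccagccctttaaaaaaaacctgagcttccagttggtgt
Oas3: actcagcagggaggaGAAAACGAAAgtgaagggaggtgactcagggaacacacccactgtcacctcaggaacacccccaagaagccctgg
Gbp5: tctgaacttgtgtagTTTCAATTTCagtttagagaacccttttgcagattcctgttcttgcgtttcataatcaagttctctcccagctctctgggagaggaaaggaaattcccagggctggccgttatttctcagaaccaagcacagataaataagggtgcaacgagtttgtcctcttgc
Gbp7: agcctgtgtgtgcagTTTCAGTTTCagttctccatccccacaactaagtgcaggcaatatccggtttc
Irgm1: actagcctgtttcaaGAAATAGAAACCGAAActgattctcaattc

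The stretch of Isg15 lies at chr4:156200819-156200911 on the minus strand and holds 3 overlapping matches. Those of Ddx60 (chr8:61928019-61928086, plus strand) and Ifit1 (chr19:34640770-34640888, plus strand) hold 2 matches that lie apart. The stretch of Irgm1 (chr11:48871421-48871465, minus strand) holds 2 matches that overlap. Oas3 (chr5:120777660-120777749, minus strand), Gbp5 (chr3:142496754-142496933, plus strand) and Gbp7 (chr3:142530268-142530335, plus strand) hold 1 match each. A match is a string of letters and not a measured binding site.

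The first comparison asks how the set is expressed in the subsets of WT mice, sorted CD8+ against sorted CD8- DCs. Most of the set was lower in CD8+ DCs: of the 42 genes, 26 fell and 3 rose at an adjusted p under 0.05 (limma's moderated test, Benjamini-Hochberg over all 22180 genes), and 13 did not pass. Over all genes, 10% fell and 11% rose at that threshold. The median change of the set was -0.73 on the log2 scale, against 0.02 over all genes. Per array, the mean signal of the 42 genes was 6.05, 6.29, 6.16 and 6.32 in WT CD8+ DCs, against 6.90, 7.14, 7.26 and 7.24 in WT CD8- DCs, so the arrays of the subsets did not overlap.

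**Figure D1:**
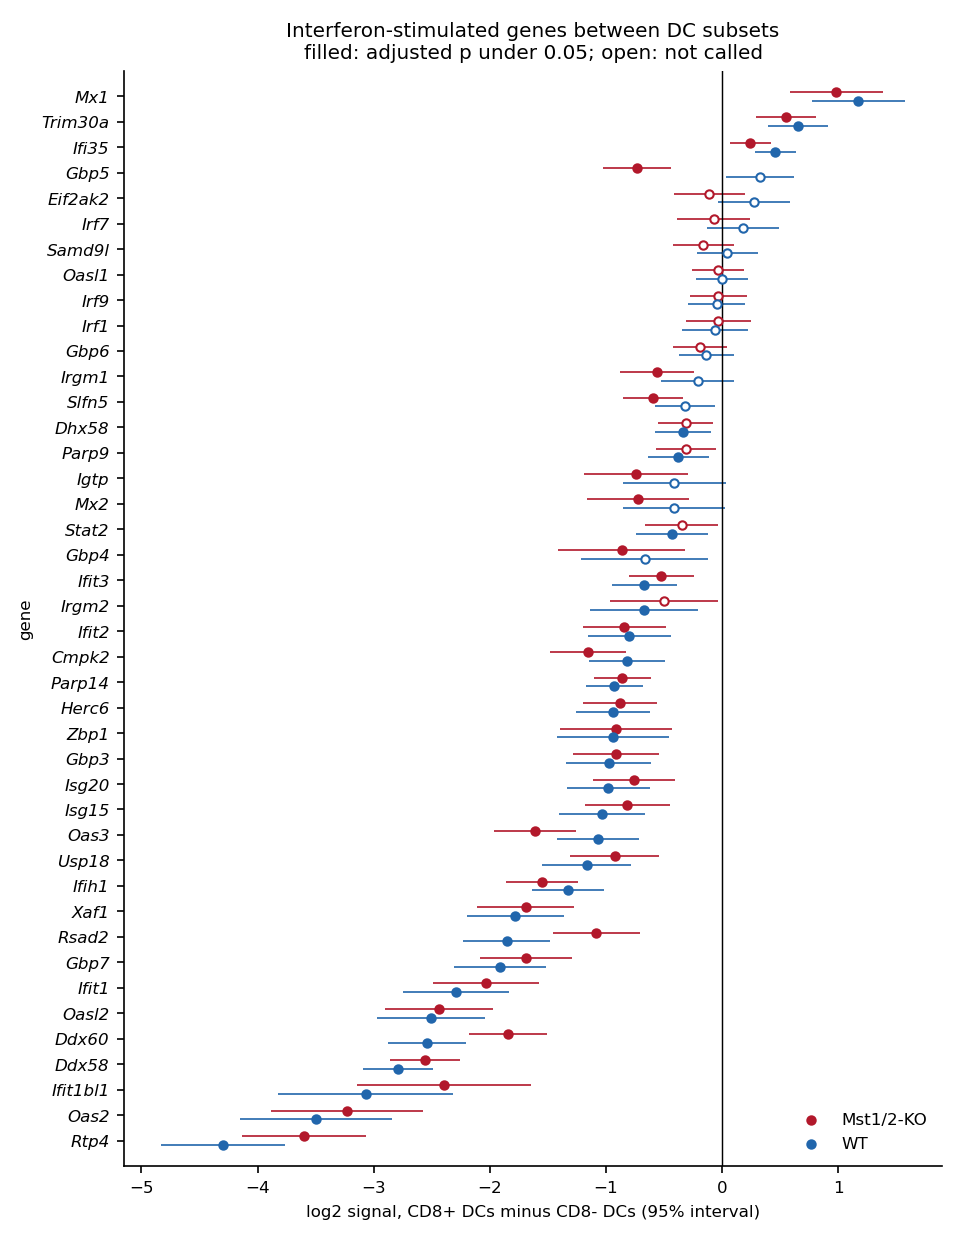
Change in log2 signal between CD8+ and CD8- DCs for the 42 genes (rows, ordered by the WT change), in Mst1/2-KO (red) and in WT DCs (blue). Points are fitted changes, filled where called, and bars 95% confidence intervals. Values left of 0 are lower in CD8+ DCs; Rtp4 lies furthest left, at -3.60 in Mst1/2-KO and -4.29 in WT, and Mx1 lies right of 0 in both genotypes.

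The transcription factors of the pathway differed little between the WT subsets. Irf7, which amplifies interferon production, changed by 0.18 ± 0.15 (SE), Irf1 by -0.06 ± 0.13 and Irf9 by -0.05 ± 0.12, none of which passed. Stat2, a transcription factor of type I signalling, fell by 0.43 on the log2 scale (adjusted p = 0.0483). It had 7.52, 7.97, 7.95 and 8.15 in WT CD8+ DCs, against 7.87, 8.41, 8.52 and 8.50 in WT CD8- DCs, and these ranges overlapped. The Stat2 call was lost with quantile normalization, with only the 8 arrays compared, and when any 1 of 6 of the 8 arrays was left out (adjusted p up to 0.164), and it was kept without CD8+ replicate 4 or CD8- replicate 1.

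Of the 6 sensors of foreign nucleic acid, 5 were lower in WT CD8+ DCs. Ddx58, which encodes the RNA sensor RIG-I, had 5.64, 5.77, 5.87 and 5.52 in WT CD8+ DCs, against 8.20, 8.52, 8.80 and 8.46 in WT CD8- DCs. Every CD8- array lay more than 2 log2 units above every CD8+ array. The change was -2.79 ± 0.14, or 6.93-fold lower in CD8+ DCs, with an adjusted p of 9.9e-11 in limma's fit. Ddx60, a helicase that assists RIG-I-like receptors and whose promoter holds 2 matches, had 4.92, 4.82, 4.94 and 4.70 in WT CD8+ DCs, against 7.09, 7.50, 7.54 and 7.41 in WT CD8- DCs (5.81-fold lower). Ifih1, which encodes the sensor of long double-stranded RNA, had 7.76, 7.28, 7.62 and 7.87 in WT CD8+ DCs, against 8.78, 8.91, 9.18 and 8.96 in WT CD8- DCs. That is a 2.51-fold lower signal with no overlap. Zbp1, a sensor of left-handed nucleic acid, fell by 0.94, and Dhx58, a regulator of the RIG-I-like receptors, fell by 0.34 (adjusted p = 0.044). Eif2ak2, which encodes the kinase PKR, changed by 0.27 ± 0.15 and did not pass (adjusted p = 0.233).

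All 3 genes of the ISG15 system were lower in WT CD8+ DCs. Isg15, a ubiquitin-like protein attached to other proteins, had 6.71, 6.84, 6.69 and 7.14 in WT CD8+ DCs, against 7.69, 7.81, 8.10 and 7.92 in WT CD8- DCs (2.05-fold lower). Usp18, which removes ISG15 and dampens receptor signalling, had 6.94, 6.97, 6.83 and 7.28 in WT CD8+ DCs, against 7.85, 7.95, 8.45 and 8.44 in WT CD8- DCs. Herc6, the mouse ligase that attaches ISG15, fell by 0.94. No array of 1 subset reached into the range of the other for any of the 3 genes.

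The 4 measured IFIT genes, whose proteins bind viral RNA, were all lower in WT CD8+ DCs. Ifit1bl1 had 4.85, 5.45, 5.28 and 5.09 in WT CD8+ DCs, against 7.52, 8.45, 8.62 and 8.36 in WT CD8- DCs, 8.40-fold lower. Ifit1 had 5.33, 5.04, 4.90 and 5.10 in WT CD8+ DCs, against 6.99, 7.51, 7.76 and 7.27 in WT CD8- DCs, 4.88-fold lower. Ifit2 and Ifit3 changed less, by -0.80 and -0.67, and both passed.

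The OAS family is known for sensing double-stranded RNA, and 3 of the 4 measured members were lower in WT CD8+ DCs. Oas2 had 4.76, 5.78, 5.18 and 5.21 in WT CD8+ DCs, against 7.86, 9.01, 8.99 and 9.05 in WT CD8- DCs (11.3-fold lower). Oasl2 had 5.21, 5.43, 4.66 and 4.93 in WT CD8+ DCs, against 7.28, 7.80, 7.65 and 7.52 in WT CD8- DCs (5.67-fold lower). Oas3 fell by 1.07, and Oasl1, known as a brake on the translation of Irf7, had a change of -0.00 ± 0.11. The probe set shared by Oas1a and Oas1g changed by -2.17 ± 0.31, which cannot be assigned to either gene.

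Among the 13 measured effectors of other kinds, 7 fell and 3 rose in WT CD8+ DCs. Rtp4, a chaperone of membrane receptors that also acts on viral RNA, had 4.76, 5.10, 5.49 and 5.20 in WT CD8+ DCs, against 8.96, 9.37, 9.78 and 9.61 in WT CD8- DCs. The change was -4.29 ± 0.25, or 19.6-fold lower, with an adjusted p of 6.39e-10, and no other gene of the set changed more. Rsad2, which encodes viperin, was 3.62-fold lower and Xaf1, a pro-apoptotic factor, was 3.43-fold lower. Parp14, an ADP-ribosyltransferase, fell by 0.93, Isg20, an RNA exonuclease, by 0.98, Cmpk2, a mitochondrial nucleotide kinase next to Rsad2 in the genome, by 0.82, and Parp9 by 0.37.

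The exceptions ran the other way. Mx1, a dynamin-like GTPase that blocks influenza virus in other mouse strains and is broken in C57BL/6 mice, had 5.55, 6.31, 6.06 and 6.59 in WT CD8+ DCs, against 4.93, 5.05, 4.73 and 5.10 in WT CD8- DCs. It rose by 1.17 ± 0.19 in CD8+ DCs, 2.26-fold, with an adjusted p of 0.000149. Trim30a, a regulator of Toll-like receptor signalling, was 1.58-fold higher in CD8+ DCs and Ifi35 was 1.38-fold higher. The second probe set of Ifi35 changed by 0.75 ± 0.11, in the same direction. Mx2, the other Mx GTPase, changed by -0.41 ± 0.21 and did not pass.

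The GTPases of the interferon gamma response were split. Of the 5 measured GBP genes, Gbp7 fell by 1.91 and Gbp3 by 0.98 in WT CD8+ DCs, whereas Gbp4 (-0.67 ± 0.26), Gbp5 (0.33 ± 0.14) and Gbp6 (-0.14 ± 0.11) did not pass. With replicate number as a block, which takes same-numbered WT arrays as pairs, Gbp4 passed (adjusted p = 0.0453). Gbp7 had 4.81, 4.51, 4.62 and 4.05 in WT CD8+ DCs, against 6.35, 6.63, 6.07 and 6.58 in WT CD8- DCs. Gbp5, which promotes inflammasome assembly, had 6.18, 6.18, 5.80 and 5.87 in WT CD8+ DCs, against 5.29, 5.84, 5.86 and 5.72 in WT CD8- DCs, and these ranges overlapped. Of the 3 IRG genes, Irgm2 fell by 0.67 (adjusted p = 0.0369), and Igtp, also called Irgm3, and Irgm1 changed by -0.41 ± 0.21 and -0.21 ± 0.15 without passing. Igtp passed with the replicate block (adjusted p = 0.0183). The probe set shared by Gbp2 and Gbp2b changed by -1.22 ± 0.29.

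Calls were also counted by promoter letters. Of the 16 measured genes whose promoter held them, 11 fell and 1 rose in WT CD8+ DCs. Of the 15 with a listed promoter without them, 8 fell and 1 rose.

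Genes around the set were mixed. Of 22 other interferon-inducible genes, 9 rose and 6 fell in WT CD8+ DCs, with a median change of 0.11: Ifi205, a DNA-sensor relative, changed by 2.14 ± 0.15 and Slfn8 by -1.55 ± 0.25. Of 15 receptor and signalling genes, 3 rose and 4 fell. Of 11 genes of nucleic acid sensing upstream of interferon, 2 rose and 4 fell. Tlr3, the endosomal receptor of double-stranded RNA, changed by 3.31 ± 0.16, and Tlr7, that of single-stranded RNA, by -4.86 ± 0.22.

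Markers of the subsets went the way of the sort labels: 9 of 9 CD8+ DC markers rose and 8 of 8 CD8- DC markers fell in WT CD8+ DCs. The lists were chosen with earlier results of these data known, so this is no independent check. Tlr3 is one of the CD8+ DC markers. Markers of other cells also differed between the WT subsets. The mean signal of 9 plasmacytoid DC markers was 6.39 in WT CD8+ DCs, against 7.39 (7.15 to 7.63 over arrays) in WT CD8- DCs, and 4 of them fell and 1 rose in CD8+ DCs. That of 8 monocyte and macrophage markers was 7.67 in WT CD8+ DCs and 8.91 in WT CD8- DCs, with 6 of 8 lower in CD8+ DCs. The T cell list, at 4.64 in WT CD8+ DCs and 5.68 in WT CD8- DCs, had 6 of 7 lower, the NK cell list 4 of 6 and the B cell list 3 of 6 (with 1 higher). Tlr7 is itself one of the plasmacytoid markers. The part of such cells in the subset difference was not tested. In these bulk samples, fewer cells of a type and less RNA per cell cannot be told apart.

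The same comparison in Mst1/2-KO mice used other arrays in the same fit. Here 28 genes of the set fell and 3 rose in CD8+ DCs, where 9.3% and 9.93% of all genes did so, and the median change was -0.79, against 0.03 over all genes. The genes that fell in both genotypes number 22, which is 22 of the 26 in WT and 22 of the 28 in Mst1/2-KO DCs. Mx1, Trim30a and Ifi35 rose in CD8+ DCs of both genotypes. The Ifi35 call in Mst1/2-KO DCs was lost with cyclic loess, averaged probe sets, the replicate block, or only the 8 arrays compared. It was also lost when any 1 array but CD8- replicate 3 was left out (adjusted p up to 0.16). Rtp4 had 6.21, 5.12, 6.31 and 5.45 in Mst1/2-KO CD8+ DCs, against 9.41, 9.47, 9.73 and 8.87 in Mst1/2-KO CD8- DCs, 12.1-fold lower. Oas2 had 5.34, 5.82, 5.12 and 5.21 in Mst1/2-KO CD8+ DCs, against 8.91, 8.76, 9.10 and 7.64 in Mst1/2-KO CD8- DCs, 9.39-fold lower. Again no array of 1 subset reached into the range of the other for either gene.

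Some genes passed in 1 genotype only, which does not by itself show that the genotypes differ. Stat2, Dhx58, Parp9 and Irgm2 passed in WT DCs, and Mx2, Slfn5, Gbp4, Gbp5, Irgm1 and Igtp passed in Mst1/2-KO DCs. With the replicate block, Slfn5, Gbp4 and Igtp passed in WT DCs as well, and Stat2 and Irgm2 passed in Mst1/2-KO DCs as well. All 4 calls of the WT list were lost without CD8+ replicate 1 or 3 or CD8- replicate 3 or 4, and parts of them without CD8+ replicate 2 or CD8- replicate 1 or 2. Of the Mst1/2-KO list, Gbp4 lost its call in 4, Igtp in 3 and Mx2 in 2 of the 8 fits without 1 array. The test of the difference itself, the Mst1/2-KO effect in CD8- minus that in CD8+ DCs, called 1 of the 42 genes, Gbp5, where 0.559% of all genes were called. Irf1, Irf7, Irf9, Eif2ak2, Oasl1, Samd9l and Gbp6 passed in neither genotype.

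The next comparison sets Mst1/2-KO against WT in CD8+ DCs. Here 2 of the 42 genes fell and 0 rose, where 0.654% of all genes fell and 0.234% rose, and both are GBP GTPases. Gbp5 had 4.56, 4.78, 4.53 and 4.84 in Mst1/2-KO CD8+ DCs, against 6.18, 6.18, 5.80 and 5.87 in WT CD8+ DCs. All 4 Mst1/2-KO arrays lay below every WT array, and the change was -1.33 ± 0.14, or 2.51-fold lower (adjusted p = 3.89e-05 in limma's fit). Gbp4 had 4.67, 4.82, 4.85 and 4.70 in Mst1/2-KO CD8+ DCs, against 6.29, 6.50, 5.22 and 5.72 in WT CD8+ DCs, again without overlap and 2.26-fold lower (adjusted p = 0.0405). The WT arrays of Gbp4 spread over more than 1 log2 unit. Its call was lost when any 1 of 7 of the 8 arrays was left out, with an adjusted p of up to 0.127, and it was kept without WT replicate 3, at 0.00824.

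**Figure D2:**
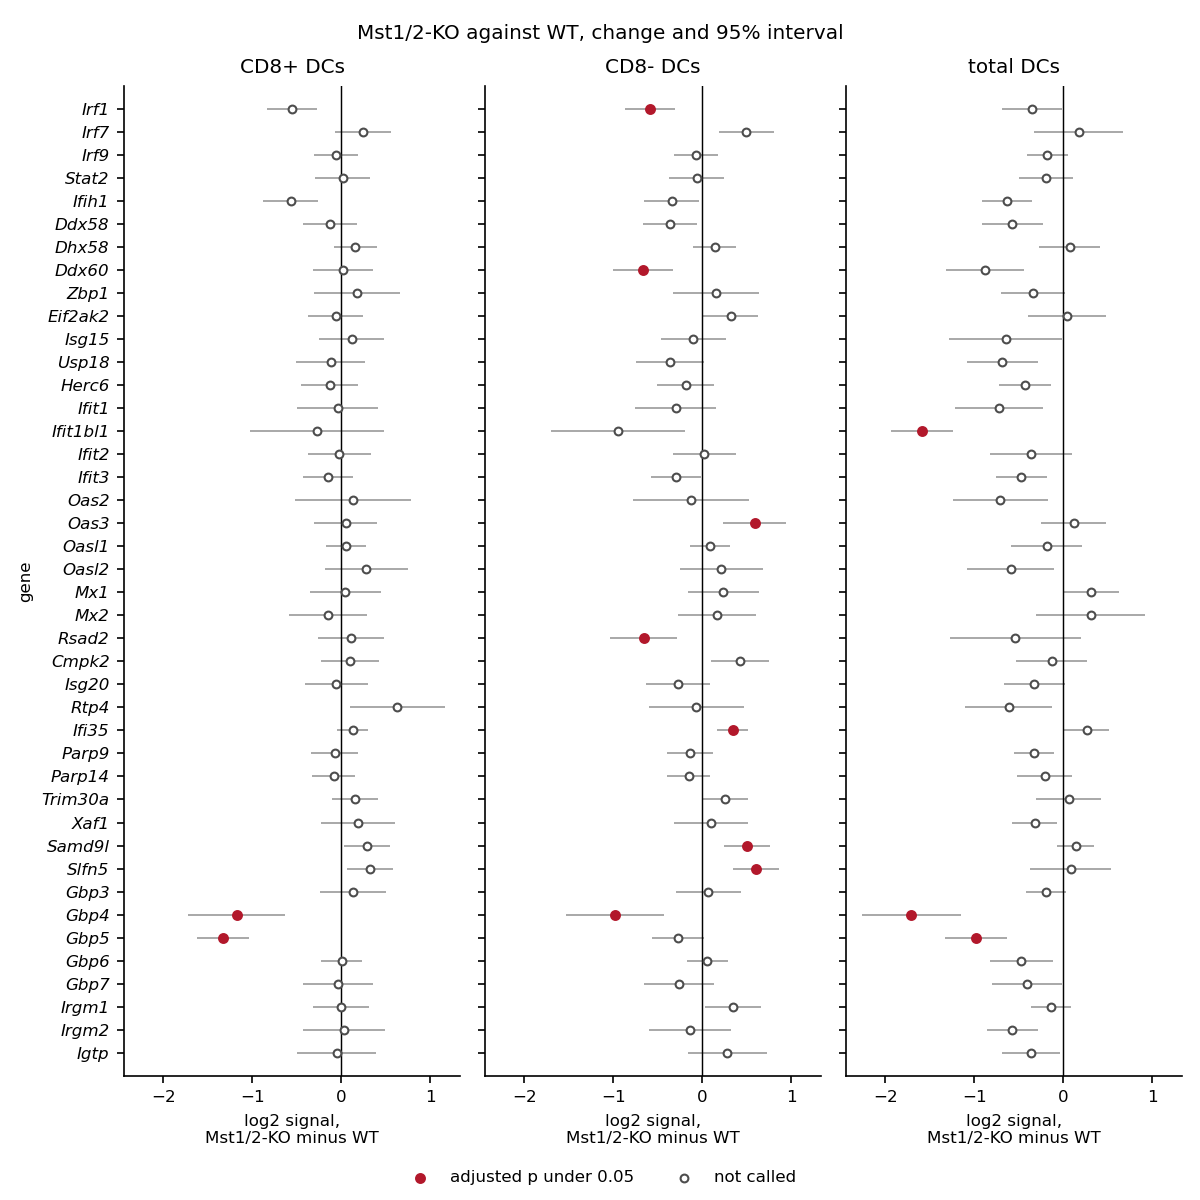
Change in log2 signal between Mst1/2-KO and WT for the 42 genes (rows, grouped by role), in CD8+, CD8- and total DCs. Points are fitted changes, filled at an adjusted p under 0.05, and bars 95% confidence intervals. Gbp4 passed in all 3 panels, Gbp5 in CD8+ and total DCs.

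The other GBP and IRG genes of CD8+ DCs stayed near 0: Gbp3 changed by 0.14 ± 0.17, Gbp7 by -0.03 ± 0.19 and Gbp6 by 0.01 ± 0.11, and the 3 IRG genes lay between -0.05 and 0.04. Irf1, the factor that interferon gamma uses to induce GBP genes, had 7.02, 6.87, 7.22 and 7.38 in Mst1/2-KO CD8+ DCs, against 7.58, 7.74, 7.60 and 7.79 in WT CD8+ DCs. The groups did not overlap, but the change of -0.56 ± 0.13 missed the threshold (adjusted p = 0.0626). It passed with quantile normalization (0.0315), cyclic loess (0.028), the level filter (0.0418) and the trend and robust fit (0.0404), and without Mst1/2-KO replicate 4 (0.0495). Ifih1, changing by -0.57 ± 0.15, missed it too (adjusted p = 0.0863). Of the other interferon-inducible genes, 1 of 22 passed: Uba7, the enzyme that activates ISG15, changed by -0.46 ± 0.09 (adjusted p = 0.0152). Its call was lost without WT replicate 1 (0.0519) or 2 (0.0572), without Mst1/2-KO replicate 3 (0.0707), and with only the 8 arrays compared (0.0671).

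The set as a whole did not lean either way in CD8+ DCs, with 22 changes above 0 (51.5% of all genes), 20 below 0 and a median of 0.01, against 0.00 over all genes. Its mean per array was 6.15, 6.13, 6.28 and 6.10 in Mst1/2-KO CD8+ DCs, against 6.05, 6.29, 6.16 and 6.32 in WT CD8+ DCs. None of the 9 CD8+ DC markers was called here, and their mean was 10.88 in Mst1/2-KO and 10.85 in WT CD8+ DCs. The plasmacytoid list lay at 6.38 in Mst1/2-KO and 6.39 in WT CD8+ DCs, with 0 of 9 called.

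In CD8- DCs the comparison of Mst1/2-KO with WT moved genes in both directions: 4 of the 42 rose and 4 fell, where 3.9% of all genes rose and 2.79% fell. Slfn5, a nuclear member of the Schlafen family, had 7.19, 7.14, 7.54 and 6.80 in Mst1/2-KO CD8- DCs, against 6.51, 6.43, 6.62 and 6.70 in WT CD8- DCs. The ranges did not overlap and the change was 0.60 ± 0.12, 1.52-fold higher (adjusted p = 0.00533). The probe set shared with the antisense gene Slfn5os changed by 0.04 ± 0.09, so the probe sets at Slfn5 did not move together. Samd9l, a growth and translation inhibitor, had 6.93, 6.75, 7.12 and 7.06 in Mst1/2-KO CD8- DCs, against 6.26, 6.37, 6.62 and 6.602 in WT CD8- DCs (1.42-fold higher). Ifi35 had 8.47, 8.28, 8.60 and 8.51 in Mst1/2-KO CD8- DCs, against 8.09, 7.996, 8.24 and 8.15 in WT CD8- DCs (1.27-fold higher). Both were clear of overlap. Oas3 rose by 0.59 ± 0.17, with values of 6.34, 6.28, 6.98 and 5.96 in Mst1/2-KO CD8- DCs, against 5.56, 5.77, 5.88 and 5.98 in WT CD8- DCs, so its lowest Mst1/2-KO array lay within the WT range.

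The 4 genes that fell in Mst1/2-KO CD8- DCs were Gbp4, Ddx60, Rsad2 and Irf1. Gbp4 had 5.13, 5.74, 6.36 and 5.27 in Mst1/2-KO CD8- DCs, against 6.23, 6.87, 6.62 and 6.69 in WT CD8- DCs (1.97-fold lower, adjusted p = 0.0306). Rsad2 had 5.92, 6.57, 6.01 and 5.68 in Mst1/2-KO CD8- DCs, against 6.62, 6.69, 6.73 and 6.79 in WT CD8- DCs (1.58-fold lower). For Gbp4 1 Mst1/2-KO array reached into the WT range, and for Rsad2 none did. Ddx60 had 6.38, 7.01, 7.15 and 6.31 in Mst1/2-KO CD8- DCs, against 7.09, 7.50, 7.54 and 7.41 in WT CD8- DCs (1.59-fold lower). Irf1 had 7.04, 7.10, 7.50 and 6.97 in Mst1/2-KO CD8- DCs, against 7.45, 7.93, 7.65 and 7.92 in WT CD8- DCs. Its change of -0.58 ± 0.13 passed here (adjusted p = 0.0126), although 1 Mst1/2-KO array reached into the WT range.

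Genes that missed the threshold in CD8- DCs include Irf7, whose change was 0.50 ± 0.15 (adjusted p = 0.0535). Ifit1bl1 had 7.70, 7.60, 7.98 and 5.89 in Mst1/2-KO CD8- DCs, against 7.52, 8.45, 8.62 and 8.36 in WT CD8- DCs (adjusted p = 0.141), the fourth Mst1/2-KO array standing far below the others. These CD8- calls rest on few arrays: leaving out 1 array at a time gave between 1 and 9 called genes. The count was 1 without WT replicate 2, 3 without Mst1/2-KO replicate 4, and 4 without WT replicate 3, Mst1/2-KO replicate 1 or Mst1/2-KO replicate 3. Slfn5 kept its call without each of the 8 arrays, and the other 7 genes did not.

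Markers moved with genotype in CD8- DCs. The 9 CD8+ DC markers averaged 8.18 (7.95 to 8.32) in Mst1/2-KO CD8- DCs, against 7.71 (7.40 to 8.001) in WT CD8- DCs. These ranges overlapped, and 4 of 9 rose. The CD8- DC markers averaged 8.49 in Mst1/2-KO and 8.88 in WT CD8- DCs, with 2 of 8 higher and 3 lower. The plasmacytoid list averaged 7.97 (7.81 to 8.13) in Mst1/2-KO CD8- DCs, against 7.39 (7.15 to 7.63) in WT CD8- DCs, with 3 of 9 higher and 1 lower, and 3 of 6 B cell markers fell. Their part in the changes of the set was not tested. Among the neighbouring lists, 4 of 22 other interferon-inducible genes rose and 1 fell: Bst2, which encodes tetherin, changed by 1.06 ± 0.16, Ifi205 by 1.02 ± 0.15 and Pml by 0.72 ± 0.16. Tlr7 fell to 9.38, 9.61, 9.34 and 8.65 in Mst1/2-KO CD8- DCs, against 10.55, 10.15, 10.36 and 10.19 in WT CD8- DCs.

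**Figure D3:**
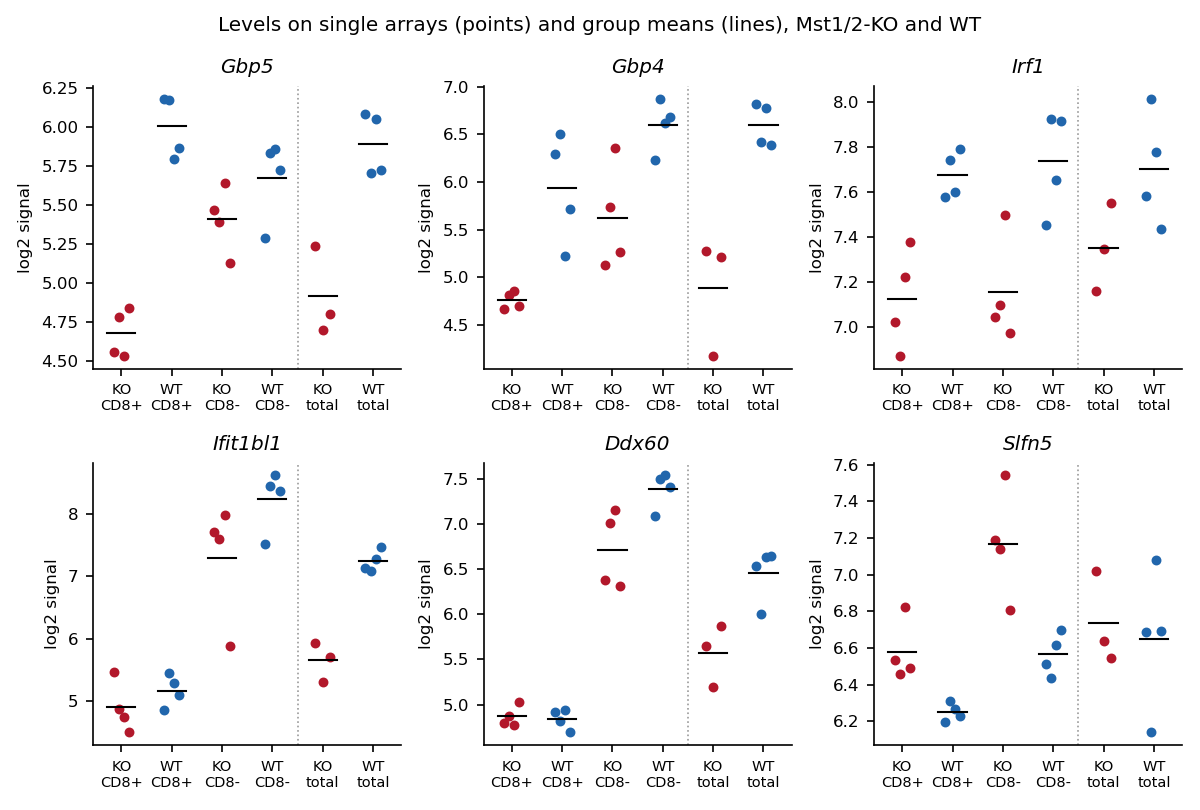
Log2 signal of Gbp5, Gbp4, Irf1, Ifit1bl1, Ddx60 and Slfn5 on each array of the sorted and total DC groups. Points are single arrays and lines group means, with each Mst1/2-KO group left of its WT group. The Gbp5 arrays of Mst1/2-KO CD8+ DCs, at 4.53 to 4.84, lie below all WT CD8+ arrays, at 5.80 to 6.18.

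Gbp5 was the 1 gene of the set called for a different response in the subsets. In CD8- DCs it had 5.47, 5.39, 5.64 and 5.13 in Mst1/2-KO, against 5.29, 5.84, 5.86 and 5.72 in WT, a change of -0.27 ± 0.14 that did not pass. The Mst1/2-KO effect in CD8- minus that in CD8+ DCs was 1.06 ± 0.20 (adjusted p = 0.0169), and with replicate number as a block it missed the threshold (adjusted p = 0.0523). Gbp4, which lies in the same gene family, had a difference of 0.20 ± 0.37 (adjusted p = 0.934). For Rsad2 (-0.77 ± 0.25), Ddx60 (-0.70 ± 0.23) and Oas3 (0.54 ± 0.24) the difference did not pass, so these genes were not shown to respond differently in the subsets. In the neighbouring lists Tlr7 passed, at -1.53 ± 0.31 (adjusted p = 0.0317). That call was lost when any 1 of 9 of the 16 arrays was left out, with an adjusted p of up to 0.0751, reached without WT CD8+ replicate 4.

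Total DCs, which were not split by CD8, gave another view of genotype, on arrays of their own. In Mst1/2-KO total DCs 3 of the 42 genes fell and 0 rose, where 0.532% of all genes fell and 0.316% rose. Ifit1bl1 had 5.94, 5.31 and 5.71 in Mst1/2-KO total DCs, against 7.13, 7.09, 7.27 and 7.48 in WT total DCs (3.01-fold lower, adjusted p = 0.00301). Gbp4 had 5.27, 4.18 and 5.22 in Mst1/2-KO total DCs, against 6.82, 6.42, 6.78 and 6.39 in WT total DCs (3.27-fold lower, adjusted p = 0.0165). Gbp5 had 5.24, 4.70 and 4.80 in Mst1/2-KO total DCs, against 6.08, 5.71, 6.05 and 5.73 in WT total DCs (1.97-fold lower, adjusted p = 0.0221). None of these groups overlapped. The Gbp5 call was lost without WT replicate 1 (adjusted p = 0.0527) or 3 (0.0513), or without Mst1/2-KO replicate 2 (0.127) or 3 (0.0746).

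Other genes leaned the same way in total DCs without passing. Ifih1 changed by -0.63 ± 0.13 (adjusted p = 0.0555) and Irgm2 by -0.57 ± 0.13 (adjusted p = 0.0828). Ddx60 had 5.65, 5.20 and 5.87 in Mst1/2-KO total DCs, against 6.53, 6.00, 6.63 and 6.65 in WT total DCs (adjusted p = 0.0741). With quantile or cyclic loess normalization these 3 passed and the count was 6. The probe set shared by Gbp2 and Gbp2b changed by -0.88 ± 0.12. Of the 42 genes, 32 changed below 0, where 50.7% of all genes changed above 0, with a median of -0.35, against 0.00 over all genes, and for 14 every Mst1/2-KO array lay below every WT array, where 5.49% of all genes did so. The mean of the 42 genes was 6.65, 6.35 and 6.50 in Mst1/2-KO total DCs, against 6.82, 6.66, 7.08 and 6.89 in WT total DCs, so the highest Mst1/2-KO array lay just under the lowest WT array.

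The total DC changes were set beside the WT subset changes, as a description. Of the 26 genes that were lower in WT CD8+ than in WT CD8- DCs, 24 changed below 0 in Mst1/2-KO total DCs, with a median of -0.45. The 13 genes that did not pass between the WT subsets had a median of -0.18, and the 3 that were higher in CD8+ DCs had a median of 0.26, none below 0. All genes lower or higher in WT CD8+ DCs were not counted in this way, so these counts are not shown to be particular to the set. Across the 42 genes the total DC change and the WT subset change, from separate arrays, correlated with Pearson's r = 0.55 and Spearman's rho = 0.63. Over all 22180 genes the values were 0.42 and 0.31, and genes are not independent replicates.

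Marker lists were read in total DCs as well. The CD8+ DC markers averaged 9.59 (9.54 to 9.63) in Mst1/2-KO total DCs, against 9.24 (9.02 to 9.54) in WT total DCs, with 0 of 9 called and all 9 changes above 0. The CD8- DC markers averaged 6.78 on the Mst1/2-KO total arrays (6.53 to 7.01), against 7.37 on the WT total arrays (7.24 to 7.50), with 1 of 8 lower. The plasmacytoid list averaged 6.71 on the Mst1/2-KO total arrays (6.20 to 7.28), against 7.26 on the WT total arrays (6.75 to 7.63), with 0 of 9 higher and 1 lower. The B cell list averaged 4.76 on the Mst1/2-KO total arrays (4.55 to 4.90), against 5.20 on the WT total arrays (5.00 to 5.51), without overlap, with 0 of 6 called and 5 changes below 0. The part of these cells and of the mix of subsets in the lower signals was not tested. For Gbp5, the change was -1.33 within sorted CD8+ DCs and did not pass within sorted CD8- DCs, against -0.98 in total DCs. These changes come from separate arrays and were not tested against each other. Tlr7 changed by -1.69 ± 0.27 in total DCs (adjusted p = 0.0219), and the call was lost without WT replicate 3 (0.0509) or 4 (0.0671), or without Mst1/2-KO replicate 1 (0.104) or 2 (0.0657).

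Experiment 1 set Rag1-KO p38-KO against Rag1-KO DCs, all stimulated with anti-CD40. In limma's fit 0 genes of the set passed, and 0 of the 22180 genes did (0%). At an unadjusted p under 0.05 there were 2 genes of the set, and 1866 genes in all (8.41%). All 42 changes were below 0, from -2.08 to -0.18 with a median of -0.74, where 50.8% of all genes changed above 0. Ifit1bl1 changed sign without Rag1-KO replicate 3, to 0.20, and without Rag1-KO p38-KO replicate 1, to 0.08, so that 41 changes were below 0 in each case. For 10 genes every Rag1-KO p38-KO array lay below every Rag1-KO array, as it did for 3.6% of all genes.

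The arrays show what that median rests on. The mean of the 42 genes was 6.00, 6.12 and 6.33 on the Rag1-KO p38-KO arrays, against 6.20, 6.34, 8.09 and 7.46 on the Rag1-KO arrays. Rag1-KO replicates 3 and 4 thus stood apart, while replicates 1 and 2 lay near the Rag1-KO p38-KO arrays. Rag1-KO replicate 3 was the highest of the 7 arrays for 41 of the 42 genes, where it was highest for 17.7% of all genes, and replicate 4 was second-highest for 40 of the 42. The median standard deviation between the 4 Rag1-KO arrays was 0.884 over the set, against 0.112 over all genes. Between the 3 Rag1-KO p38-KO arrays it was 0.190 over the set and 0.0909 over all genes. Without Rag1-KO replicate 3 the median change of the set was -0.43, and without replicate 4 it was -0.65, an alternative added after the data were seen.

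**Figure D4:**
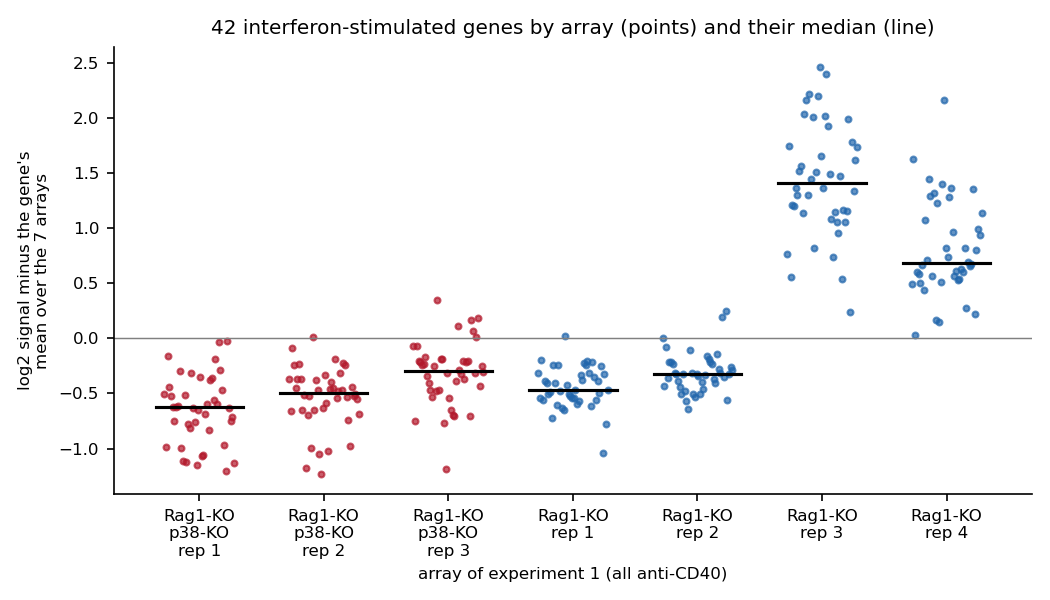
Log2 signal of the 42 genes on each array of experiment 1, as the difference from the gene's mean over the 7 arrays. Each point is a gene and each line a median, which was -0.63, -0.49 and -0.30 on the Rag1-KO p38-KO arrays, and -0.47, -0.32, 1.41 and 0.69 on the Rag1-KO arrays.

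Single genes give the values behind this. Oasl1 had 4.63, 4.55 and 4.59 on the Rag1-KO p38-KO arrays, against 5.25, 5.24, 8.24 and 7.94 on the Rag1-KO arrays. Rag1-KO replicates 1 and 2 lay near each other and far under replicates 3 and 4. Although the groups did not overlap, the change of -2.08 ± 0.84 did not pass (adjusted p = 0.588). Isg15 had 6.38, 6.20 and 6.90 on the Rag1-KO p38-KO arrays, against 6.96, 6.92, 9.41 and 8.81 on the Rag1-KO arrays. Usp18 had 6.36, 6.78 and 6.94 on the Rag1-KO p38-KO arrays, against 6.86, 6.96, 9.63 and 8.76 on the Rag1-KO arrays. For Isg15, Rag1-KO replicates 1 and 2 lay just above the highest Rag1-KO p38-KO array, and for Usp18 replicate 1 lay below it. In both genes Rag1-KO replicates 3 and 4 lay over 1 log2 unit above the other 5 arrays.

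Genes of other roles were likewise high on Rag1-KO replicates 3 and 4. Irf7 had 7.24, 7.57 and 7.48 on the Rag1-KO p38-KO arrays, against 7.69, 7.80, 9.97 and 9.86 on the Rag1-KO arrays. Rsad2 had 4.59, 4.62 and 4.95 on the Rag1-KO p38-KO arrays, against 5.04, 5.25, 8.04 and 7.001 on the Rag1-KO arrays. Gbp5 had 4.24, 4.47 and 5.12 on the Rag1-KO p38-KO arrays, against 4.95, 5.09, 7.44 and 6.79 on the Rag1-KO arrays. In Irf7 and Rsad2, Rag1-KO replicates 1 and 2 lay above every Rag1-KO p38-KO array, by less than 0.5 log2 units from the highest, and in Gbp5 they lay just below it. Irgm1, whose promoter stretch carries overlapping matches, had 5.88, 6.12 and 6.20 on the Rag1-KO p38-KO arrays, against 6.30, 6.31, 7.96 and 7.63 on the Rag1-KO arrays. Ifit3, the second gene at an unadjusted p under 0.05, had 6.49, 6.43 and 6.61 on the Rag1-KO p38-KO arrays, against 6.82, 6.70, 7.62 and 6.95 on the Rag1-KO arrays, a change of -0.51 ± 0.22 (adjusted p = 0.593). Here only Rag1-KO replicate 3 stood apart.

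Neighbouring lists and markers on these arrays were as follows. The 22 other interferon-inducible genes averaged 8.37, 8.39 and 8.46 on the Rag1-KO p38-KO arrays, against 8.46, 8.56, 9.57 and 9.31 on the Rag1-KO arrays, the same 2 arrays being high. The CD8- DC markers averaged 7.13, 7.39 and 7.47 on the Rag1-KO p38-KO arrays, against 7.05, 7.23, 6.55 and 6.45 on the Rag1-KO arrays, where those 2 were low. The plasmacytoid list averaged 6.65, 7.50 and 6.88 on the Rag1-KO p38-KO arrays, against 6.98, 6.82, 7.31 and 7.08 on the Rag1-KO arrays. The monocyte and macrophage list averaged 7.997, 8.29 and 7.91 on the Rag1-KO p38-KO arrays, against 8.32, 8.15, 8.89 and 8.57 on the Rag1-KO arrays. The neutrophil list averaged 5.85, 5.56 and 4.12 on the Rag1-KO p38-KO arrays, against 6.65, 6.37, 7.34 and 6.37 on the Rag1-KO arrays. Of its 6 genes, 5 did not overlap between the genotypes, and no gene passed. Over all genes, 3.6% lay lower in Rag1-KO p38-KO without overlap. The NK cell list averaged 4.82, 5.30 and 5.35 on the Rag1-KO p38-KO arrays, against 5.44, 5.24, 5.75 and 5.82 on the Rag1-KO arrays. The part of these cells in the high signals was not tested.

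In experiment 2, the 2 Rag1-KO arrays with anti-CD40 were set against 1 non-stimulated Rag1-KO array. The fit pools the spread over the 11 arrays of both experiments and takes the lone array to vary as much as the rest, and its standard errors hold the wide spread of experiment 1. No gene of the set passed, where 0.0361% of all genes did, and 2 of the 42 had an unadjusted p under 0.05, as did 13.1% of all genes. The direction was shared: 41 of the 42 changes were above 0 with anti-CD40, where 48.1% of all genes were, with a median of 0.68. For 40 genes both anti-CD40 arrays lay above the non-stimulated array, as for 33.1% of all genes. The mean of the set was 7.10 and 7.22 with anti-CD40, against 6.49 without.

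**Figure D5:**
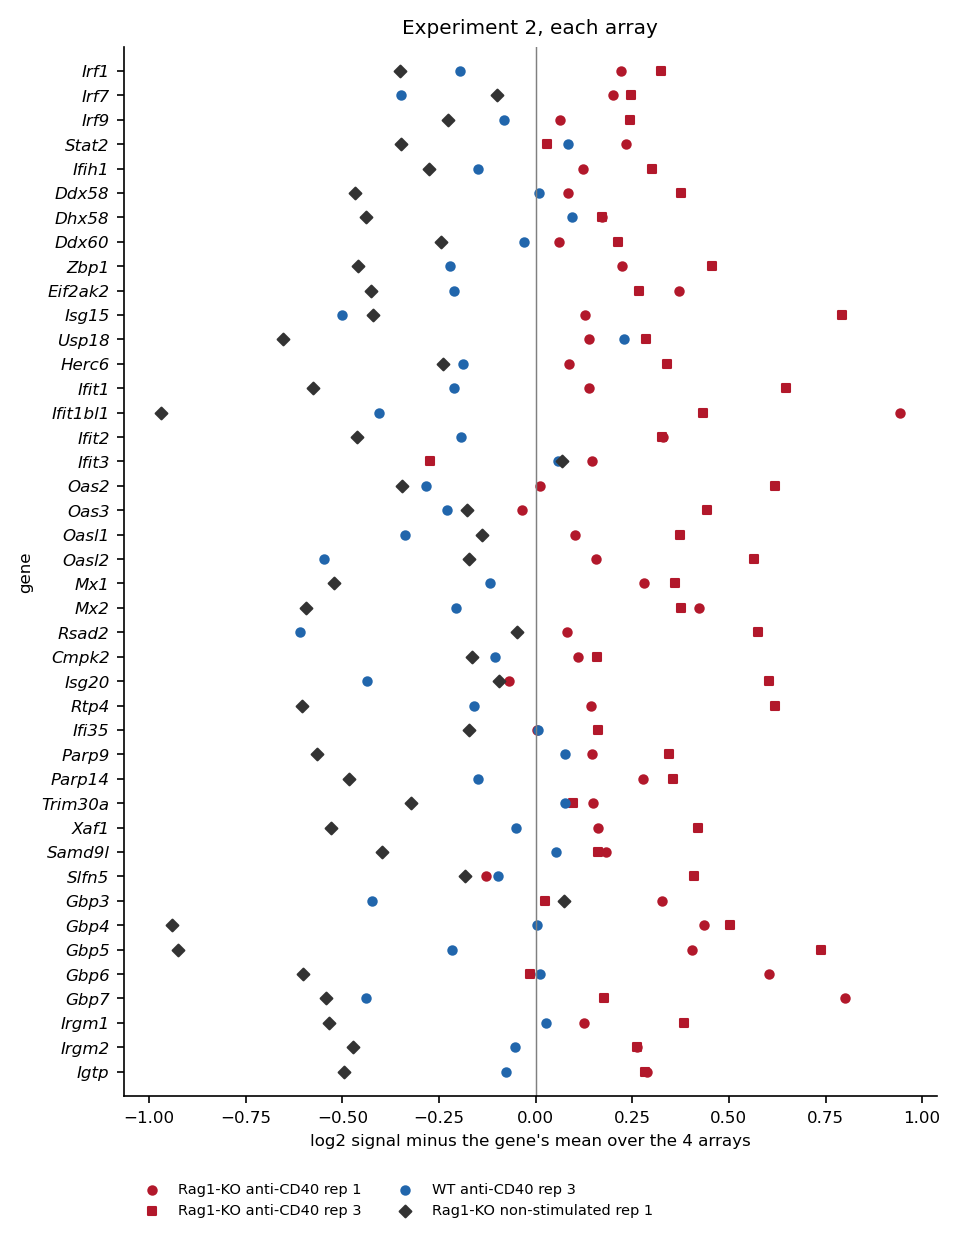
Log2 signal of the 42 genes (rows) on the 4 arrays of experiment 2, as the difference from the gene's mean over them. Each symbol is 1 array. The mean log2 signal of the set was 7.10 and 7.22 on the Rag1-KO arrays with anti-CD40, 6.49 on the non-stimulated Rag1-KO array and 6.73 on the WT array with anti-CD40.

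By role, the median change with anti-CD40 was 1.03 for the GBP GTPases, 0.88 for the IFIT family, 0.87 for the ISG15 system, 0.78 for the IRG GTPases, 0.65 for the sensors, 0.57 for the other effectors, 0.46 for the OAS family and 0.43 for the transcription factors. Gbp4 had 6.54 and 6.61 with anti-CD40, against 5.16 without, a change of 1.41 ± 0.58 (adjusted p = 0.349). Gbp5 had 6.22 and 6.56 with anti-CD40, against 4.89 without. Ifit1bl1 had 7.68 and 7.17 with anti-CD40, against 5.77 without. Each of these 3 lay over 1 log2 unit higher on both stimulated arrays. Gbp6, with the smallest p, changed by 0.90 ± 0.30 (adjusted p = 0.274), and Samd9l by 0.57 ± 0.27. The deposited values of Gbp6 averaged 2.89 over the 4 arrays, under the array medians of all probe sets (4.11 to 4.20). Given the constant in each probe set's values, this cannot show whether the signal of Gbp6 was near background. The exception in direction was Ifit3, which changed by -0.13 ± 0.33, its stimulated arrays lying on both sides of the non-stimulated one. The neutrophil list averaged 7.43 and 7.66 with anti-CD40, against 6.77 without, and the monocyte list 8.53 and 8.49, against 8.69, and their part was not tested.

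The same 2 Rag1-KO arrays were also set against 1 WT array, all with anti-CD40, so the comparisons of experiment 2 share these arrays. No gene of the set passed, where 0.365% of all genes did, and 0 of the 42 had an unadjusted p under 0.05, against 14% of all genes. Of the 42 changes 40 were above 0 in Rag1-KO, where 48.3% of all genes were, with a median of 0.44. Ifit1bl1, at 7.68 and 7.17 in Rag1-KO, against 6.34 in WT, had the smallest p (adjusted p = 0.594). Irf1 had 7.90 and 8.01 in Rag1-KO, against 7.49 in WT. Oasl2 had 6.92 and 7.33 in Rag1-KO, against 6.21 in WT, and Isg20 had 6.81 and 7.48 in Rag1-KO, against 6.44 in WT. Usp18 and Ifit3 changed by -0.02 and -0.12. Markers differed here too: the neutrophil list averaged 7.43 and 7.66 in Rag1-KO, against 5.55 in WT, the NK cell list 6.05 and 5.84, against 4.85, and 2 of 6 B cell markers fell in Rag1-KO. Their part was not tested.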

How the data were processed

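Values were deposited by the authors as log2 signals in a table of 41155 probe sets on 34 arrays. RMA and Partek 6.6 are named in the submitters' processing notes, and the step that left a constant per probe set and experiment label is not given in the sources used here. All array columns were used (0 others). Probe sets with exactly 1 gene symbol in the platform annotation (23521) were kept, and of several per gene the brightest on average stood for it. One mean per group was modelled (limma 3.58.1, R 4.3.3, lmFit and eBayes) over 16 sorted-subset arrays, 7 total DC arrays, 7 arrays of experiment 1, and 11 of both experiments for experiment 2. The call was an adjusted p under 0.05 (Benjamini-Hochberg, 22180 genes). Genes were named if called (up to 16 a comparison, by size), or the 4 smallest p where fewer than 4 were called; values of further genes were chosen after being seen. Members and lists were chosen with earlier results of these data known. Deviations of same-numbered CD8+ and CD8- arrays correlated at 0.13 to 0.34 in WT and 0.09 to 0.21 in Mst1/2-KO DCs. In each genotype 4 of 4 arrays correlated best with their own number. The labels do not say whether they are paired, and the reported fits took no account of it. The fits were tested on simulated data. Alternatives were normalization, a level filter, averaged probe sets, trend and robust fits, replicate blocks, fits on the groups compared, and leaving out each array.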

Additional observations from a re-analysis of the deposited data

Results flagged for a closer look

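In groups of 4 arrays, 10 of 252 groups held an array far from the other 3 by Dixon's test, and chance alone flags about 1 in 20. WT CD8- replicate 1 was low for Stat2, at 7.87 (others 8.41 to 8.52), for Oas2, at 7.86 (8.99 to 9.05), and for Parp14, at 8.44 (8.64 to 8.67). Dhx58 was low on WT CD8- replicate 2, at 6.92 (7.07 to 7.10), Herc6 on WT CD8+ replicate 1, at 7.10 (7.40 to 7.44), and Ifit2 on WT total replicate 2, at 3.74 (4.52 to 4.67). Oasl1 was high on Mst1/2-KO CD8- replicate 3, at 6.19 (5.68 to 5.73). Mst1/2-KO CD8+ replicate 3 was high for Parp14, at 7.90 (7.45 to 7.52), and for Trim30a, at 6.71 (6.45 to 6.47). Gbp6 was low on Rag1-KO replicate 1 of experiment 1, at 2.73 (3.20 to 3.23).

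The Mst1/2-KO effect on Gbp5 differed between the subsets by 1.06 on the log2 scale, CD8- minus CD8+, in limma's test of the difference. That call was lost with replicate number as a block (adjusted p = 0.0523).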

How the results depend on the processing

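Counts of called genes kept within 1.5 times of those reported in most settings. With only the 8 arrays of the groups compared, the count was 1 in Mst1/2-KO CD8+ DCs (2 reported) and 5 in Mst1/2-KO CD8- DCs (8 reported). In total DCs it was 6 with quantile normalization and 6 with cyclic loess (3 reported). With the replicate block the difference between the subsets called 0 genes (1 reported), and the WT subset comparison called 32 (29 reported). Leaving out 1 array at a time gave 1 to 2 genes in CD8+ DCs, 1 to 9 in CD8- DCs, 1 to 1 for the difference, 25 to 30 between WT subsets, 28 to 32 between Mst1/2-KO subsets, 2 to 4 in total DCs and 0 to 0 in each comparison of experiments 1 and 2. Over the other settings the subset counts were 27 to 32 in WT and 30 to 32 in Mst1/2-KO DCs. No called gene of the set changed sign in any setting run, and of all 5190 values of the 42 genes over comparisons and settings 163 changed sign, each of a gene that was not called. Counted over genes and settings, 896 values of called named genes, neighbouring lists included, stayed past the threshold and 70 did not. Of the called genes of the set, 25 of 29 between WT subsets and 27 of 31 between Mst1/2-KO subsets kept their call in every setting that tested them. Stat2, Dhx58, Parp9 and Irgm2 did not in WT, nor Ifi35, Gbp4, Igtp and Mx2 in Mst1/2-KO DCs, where the replicate block ended the call of Ifi35 (adjusted p = 0.051) and added Stat2 and Irgm2. The median change of the set in experiment 1, with each array left out, ran from -0.99 to -0.43. Between Mst1/2-KO subsets the deviations of same-numbered arrays correlated at 0.09 to 0.21. There 4 of 4 arrays correlated best with their own number, as in WT. In experiment 1 the range was 0.09 to 0.16, and 3 of 3 did so. The labels do not say whether these arrays are paired. Between genotypes the range was -0.07 to 0.09 in CD8+, 0.01 to 0.09 in CD8- and 0.05 to 0.13 in total DCs. There 2 of 4, 2 of 4 and 2 of 3 arrays correlated best with their own number. The replicate block changed no other count by over 1.5 times. The cause of these shifts was not tested. The number of arrays limits the experiments with a lone array.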
